A study of Salmo salar with 96 samples.

Results

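The eyes of 8 Atlantic salmon parr, the freshwater juvenile stage, were compared across all 220 genes of a custom panel. They were every sample with the tissue label eye among the 96 samples of the series. The 4 wild parr came from the Inarijoki river and were all males, fish 1 and 2 immature and fish 3 and 4 mature. The 4 hatchery parr came from the Neva strain, were fed a normal diet and were all immature, fish 1 and 2 males and fish 3 and 4 females. All 8 fish were 3 years old, the wild fish caught by electrofishing and the hatchery fish reared under commercial farming conditions. mRNA was counted with nCounter, in which a coloured barcode probe is counted for each bound transcript without amplification. Habitat, river of origin and the cartridge on which the eyes were run differed together, so that they cannot be told apart here.

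The vertebrate eye holds tissues of different origin. The retina is an outgrowth of the embryonic brain and is specified by the eye field transcription factors, among them the homeobox proteins SIX3, SIX6 and OTX2. The cornea, sclera and choroid around it are connective tissue, rich in type I collagen and in fish partly supported by cartilage, and the muscles that move the eye are attached to the sclera. In bulk RNA of such an organ, fewer cells of a type and less RNA per cell cannot be told apart.

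The total of the 220 gene counts was 85388 to 114374 in wild eyes and 142454 to 248992 in hatchery eyes, and the groups did not overlap (exact permutation test, two-sided, p = 0.029, the smallest that 4 against 4 allows, adjusted p = 0.11 over 4 sample measures). The factor from 6 reference genes, by which each sample was scaled, was 0.917 to 1.29 in wild eyes and 0.817 to 1.39 in hatchery eyes (exact p = 0.89). The scaled mean of the negative control probes was 9.02 to 13.4 in wild eyes and 11.1 to 13.9 in hatchery eyes, and a level of 20 normalized counts was taken as background. The sum of the positive control probes was 45284 to 63228 in wild eyes and 19590 to 82101 in hatchery eyes, lowest in hatchery fish 1. The wild eyes had been run on 3 cartridges over 2 days and the hatchery eyes on 4 cartridges over 3 other days, and 0 cartridges held eyes of both.

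Eye field, protein kinase A and CADM2 genes were mostly higher in the wild eyes, and genes of the collagen matrix, of mesoderm and of the Hippo pathway were lower or not called. A gene was tested if wild or hatchery eyes averaged 20 or more normalized counts, which left 171 genes for the quasi-likelihood F test of edgeR, with Benjamini-Hochberg adjustment over all of them. At an adjusted p under 0.05, 97 genes (56.7%) were called, 43 (25.1%) higher and 54 (31.6%) lower in wild eyes, and 106 genes had an unadjusted p under 0.05. The counts of each list below are to be read beside these shares. The values of the groups did not overlap for 89 of the 171 genes (52.0%), of which 83 were among the genes called. The median log2 fold change over all genes tested was -0.19, and fold changes are wild over hatchery throughout. The other 49 panel genes stayed below the background in both groups on average and were not tested.

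**Figure D1:**
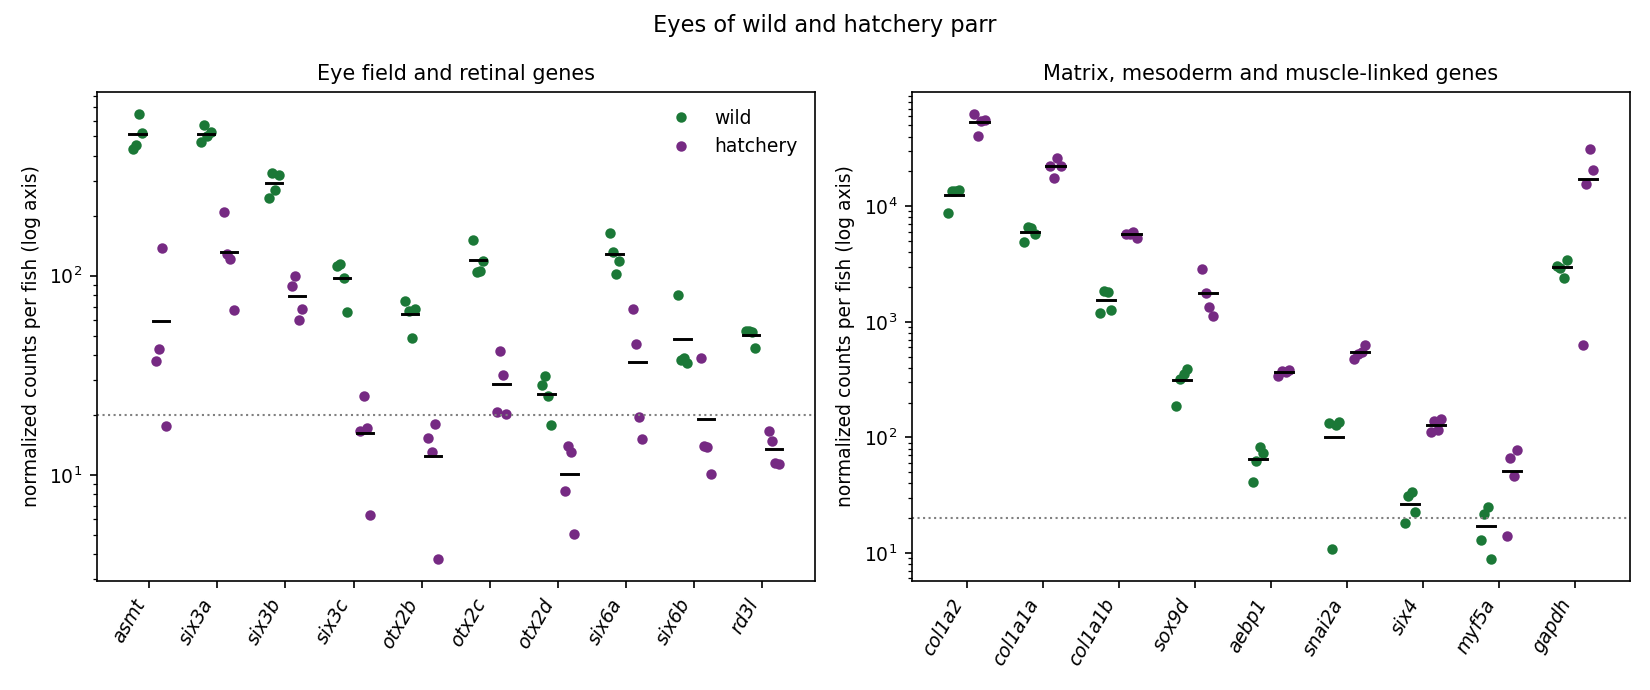
Normalized counts per fish on a log axis for 10 eye field and retinal genes (left) and 9 matrix, mesoderm and muscle-linked genes (right), with wild fish to the left (green) and hatchery fish to the right (purple) of each gene. Black bars are means of 4 fish and the dotted line is the background of 20 counts. The genes on the left lay higher in wild eyes and matrix genes lower, with *six6b*, *myf5a* and *gapdh* as genes whose groups overlapped.

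Of the 9 tested *six3*, *six6* and *otx2* paralogs, homeobox genes of the eye field, 8 were higher and 0 were lower in wild eyes, at a median log2 fold change of 1.88 against -0.19 over all genes tested. *six3a*, which encodes a homeobox repressor needed for the forebrain and the retina, had 471, 568, 501 and 523 normalized counts in wild eyes, against 208, 128, 121 and 66.98 in hatchery eyes. Every wild eye was above every hatchery eye (log2 fold change 1.98 with SE 0.28, adjusted p = 0.00022). Its paralog *six3b* had 245, 329, 268 and 320.3 normalized counts in wild eyes, against 88.7, 99.2, 59.6 and 68.2 in hatchery eyes (log2 fold change 1.88 with SE 0.21, adjusted p = 7.9e-05). *six3c* was at 112, 114, 97.2 and 66.02 in wild eyes and at 16.6, 25.02, 17.2 and 6.32 in hatchery eyes (log2 fold change 2.54 with SE 0.35, adjusted p = 0.00016), so that only hatchery fish 2 of the 4 hatchery eyes was above the background.

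The *otx2* paralogs encode a homeobox factor of photoreceptor fate and of the retinal pigment epithelium. *otx2b* was above the background in all 4 wild eyes, at 74.8, 66.8, 48.6 and 67.99, and below it in all 4 hatchery eyes, at 15.2, 12.98, 17.97 and 3.79 (log2 fold change 2.32 with SE 0.36, adjusted p = 0.00031). *otx2c* had 151, 105, 105 and 118 normalized counts in wild eyes, against 20.8, 41.7, 31.9 and 20.2 in hatchery eyes (log2 fold change 2.03 with SE 0.27, adjusted p = 0.00014). *otx2d* was low in both groups, at 17.7 to 31.2 in wild eyes and 5.05 to 13.9 in hatchery eyes (log2 fold change 1.27 with SE 0.34, adjusted p = 0.0086). *otx2a* was not called (log2 fold change 0.13 with SE 0.34, adjusted p = 0.74), with values of 18.3 to 35.6 in wild eyes and 17.97 to 37.1 in hatchery eyes, so the paralogs did not all follow the same pattern.

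*six6a*, a candidate gene of age at maturity and a homeobox factor of the retina and hypothalamus, had 164, 131, 102 and 118 normalized counts in wild eyes, against 67.9, 45.4, 19.6 and 15.2 in hatchery eyes. The groups did not overlap (log2 fold change 1.82 with SE 0.40, adjusted p = 0.0031), and within the hatchery group both males were above both females. Its paralog *six6b* had 79.9, 37.7, 38.5 and 36.5 normalized counts in wild eyes, against 38.8, 13.9, 13.9 and 10.1 in hatchery eyes. Wild fish 1 and hatchery fish 1 were the highest of their groups, and hatchery fish 1 lay above the 3 lower wild fish. *six6b* was called over the 8 fish (log2 fold change 1.35 with SE 0.44, adjusted p = 0.021), but without any 1 of wild fish 1 and hatchery fish 2, 3 and 4 the adjusted p was 0.052 to 0.075. The log2 ratio of *six6b* to *six6a* was -1.46 ± 0.34 in wild eyes and -0.86 ± 0.54 in hatchery eyes (SD, n = 4 each, exact permutation test, two-sided, p = 0.11, adjusted p = 0.17 over 3 paralog pairs).

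*asmt* had the largest fold change of the panel. It encodes acetylserotonin O-methyltransferase, the last enzyme of melatonin synthesis, which in fish is made in the pineal organ and in retinal photoreceptors. Its level was 433, 454, 646 and 517 normalized counts in wild eyes, against 37.4, 42.6, 138 and 17.7 in hatchery eyes. The wild fish were on average 8.69 times as high as the hatchery fish (log2 fold change 3.08 with SE 0.50, adjusted p = 0.00044), and 1 hatchery eye was below the background. In the 6 other tissues that were compared, all samples of both habitats lay between 2.48 and 39.0 normalized counts for *asmt*. *rd3l*, whose relative *rd3* is needed in photoreceptors of mammals, had 52.9, 52.8, 52.3 and 43.4 normalized counts in wild eyes, against 16.6, 14.8, 11.4 and 11.4 in hatchery eyes (log2 fold change 1.89 with SE 0.24, adjusted p = 0.00012).

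The Groucho corepressors bind SIX3 and SIX6, and their truncated relatives of the AES type can oppose them. Of 7 tested members, 2 were higher and 1 was lower in wild eyes (median log2 fold change 0.35). This was a smaller share than the 56.7% called over all genes tested. *tle1a* had 182, 189, 189.8 and 205 normalized counts in wild eyes, against 41.6, 53.8, 89.9 and 41.7 in hatchery eyes (log2 fold change 1.73 with SE 0.26, adjusted p = 0.00027), and *tle4a* had 491, 531, 417 and 453 normalized counts in wild eyes, against 162, 245, 217 and 172 in hatchery eyes (log2 fold change 1.25 with SE 0.18, adjusted p = 0.00022). In both genes all wild eyes lay above all hatchery eyes. The AES gene *aesa* was lower, at 461 to 533 in wild eyes and 596 to 724 in hatchery eyes (log2 fold change -0.47 with SE 0.14, adjusted p = 0.014), a call that was lost under TMM scaling (adjusted p = 0.12) and with 4 reference genes. *tle1b* was not called at a log2 fold change of 0.37, but was called under TMM scaling (0.54, adjusted p = 0.039) and with 4 reference genes (0.60, adjusted p = 0.034).

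Neuronal adhesion was represented by CADM2, a synaptic cell adhesion protein, and all 3 of its genes were higher in wild eyes (median log2 fold change 1.02). *cadm2a* had 81.2, 84.03, 66.03 and 80.8 normalized counts in wild eyes, against 11.1, 12.98, 13.9 and 1.26 in hatchery eyes (log2 fold change 2.92 with SE 0.39, adjusted p = 0.00016). None of the hatchery eyes reached the background for *cadm2a*, so that its fold change depends on values at the level of the negative controls. *cadm2ba* (log2 fold change 1.02 with SE 0.30, adjusted p = 0.013) and *cadm2bb* (log2 fold change 0.88 with SE 0.29, adjusted p = 0.021) differed less, and the *cadm2bb* call was lost without wild fish 2 (adjusted p = 0.054) or hatchery fish 3 (0.052). *cadm2ba* was also near the background, at 15.6 to 30.9 in wild eyes and 8.85 to 12.98 in hatchery eyes. In males alone only 1 of the 3 genes was called. Over all genes tested 25.1% were higher in wild eyes.

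Protein kinase A is held inactive by its regulatory subunits until they bind cyclic AMP, a messenger that in photoreceptors follows light and the time of day. Of the 13 regulatory subunit genes measured, all were tested, 9 were higher and 0 were lower in wild eyes (median log2 fold change 0.88). Over all genes tested 25.1% were higher and 31.6% lower. Among the 9 was *prkar1aa*, which is also 1 of the 6 genes that scaled the samples. Its call was lost with the immature fish only (log2 fold change 0.42, edgeR adjusted p = 0.10). *prkar2bb*, a type II beta subunit gene, had 103, 114, 67.9 and 90.7 normalized counts in wild eyes, against 22.2, 18.5, 22.1 and 10.1 in hatchery eyes (log2 fold change 2.34 with SE 0.29, adjusted p = 8.5e-05). *prkar2ab*, of the type II alpha subunit, had 171, 231, 228 and 209.9 normalized counts in wild eyes, against 34.6, 72.3, 53.9 and 46.8 in hatchery eyes (log2 fold change 2.001 with SE 0.24, adjusted p = 7.9e-05). In both genes the lowest wild eye was well above the highest hatchery eye. *prkar1ab*, of the type I alpha subunit, averaged 1179 ± 93.5 in wild eyes and 554 ± 149 in hatchery eyes normalized counts (SD, n = 4 each, log2 fold change 1.09 with SE 0.20, adjusted p = 0.0011). *prkar2ba* (log2 fold change 1.30 with SE 0.19, adjusted p = 0.00022), *prkar1ba* (log2 fold change 1.23 with SE 0.25, adjusted p = 0.0018) and *prkar2ac* (log2 fold change 1.18 with SE 0.25, adjusted p = 0.0026) were higher too. The 4 that did not pass the test were *prkar1ac*, *prkar2aa*, *prkar2bc* and *prkar2bd*, at log2 fold changes of -0.19 to 0.05.

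**Figure D2:**
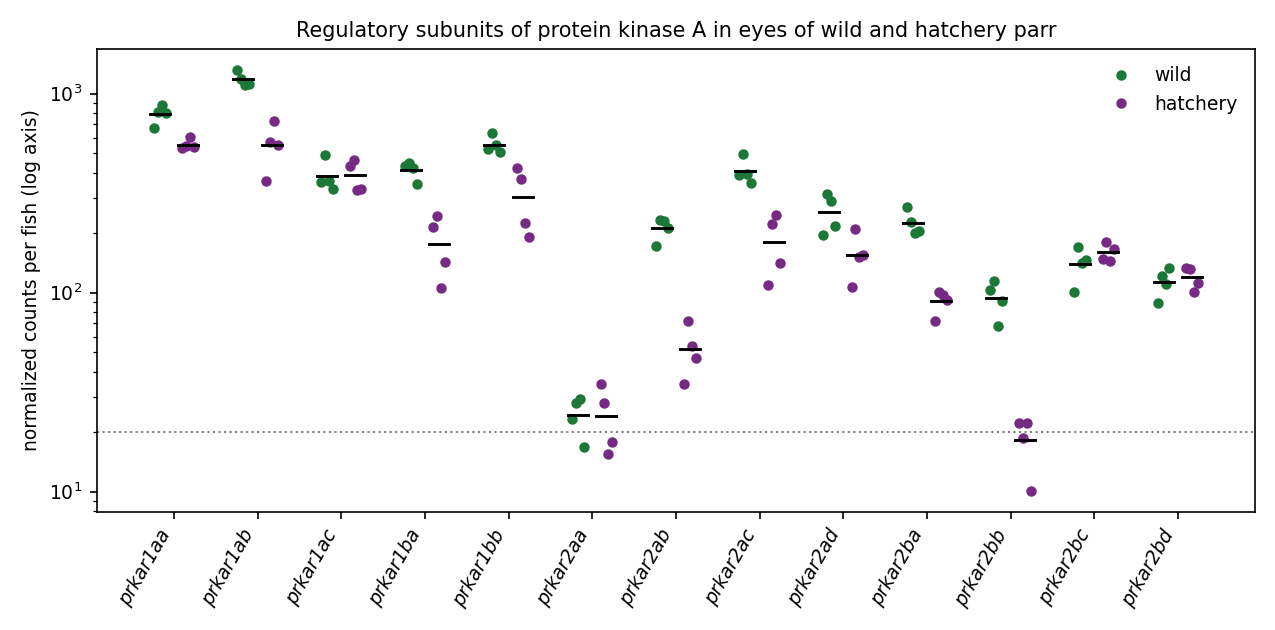
Normalized counts per fish on a log axis for the 13 protein kinase A regulatory subunit genes, wild fish (green) to the left and hatchery fish (purple) to the right of each gene, with means of 4 fish as black bars and the background of 20 counts as a dotted line. 9 of the 13 genes were higher in wild eyes.

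Matrix genes went the other way. Of 15 tested genes of a chondrogenesis and osteogenesis list, 10 were lower and 0 were higher in wild eyes, at a median log2 fold change of -1.76. Over all genes tested 31.6% were lower and 25.1% higher. *col1a2*, which encodes the alpha 2 chain of type I collagen, the main protein of cornea and sclera, had 8818, 13597, 13414 and 13760 normalized counts in wild eyes, against 62510, 40899, 55076 and 55753 in hatchery eyes. The highest wild eye was far below the lowest hatchery eye (log2 fold change -2.11 with SE 0.25, adjusted p = 7.9e-05). *col1a1a* had 4853, 6600, 6513 and 5754 normalized counts in wild eyes, against 22285, 17667, 26162 and 22414 in hatchery eyes (log2 fold change -1.90 with SE 0.21, adjusted p = 7.9e-05), and *col1a1b* had 1180, 1860, 1820 and 1263 normalized counts in wild eyes, against 5769, 5779, 6012 and 5341 in hatchery eyes (log2 fold change -1.90 with SE 0.20, adjusted p = 7.9e-05). The 3 collagen genes therefore averaged 4.32, 3.73 and 3.74 times as many counts in hatchery eyes as in wild eyes, named in the same order.

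*aebp1* encodes a secreted collagen-binding protein of connective tissue. It had 41.3, 62.5, 82.5 and 72.9 normalized counts in wild eyes, against 339.5, 377, 369 and 385 in hatchery eyes, with the hatchery fish close together (log2 fold change -2.49 with SE 0.22, adjusted p = 5.3e-05). The *sox9* paralogs encode the regulator of cartilage formation, which is also made in the Müller glia of the retina. *sox9d* had 188, 322, 353 and 386 normalized counts in wild eyes, against 2869, 1759, 1352 and 1126 in hatchery eyes (log2 fold change -2.50 with SE 0.32, adjusted p = 0.00012) and *sox9b* had 11.6, 12.9, 9.17 and 7.88 normalized counts in wild eyes, against 40.2, 38.9, 40.8 and 39.2 in hatchery eyes (log2 fold change -1.94 with SE 0.25, adjusted p = 0.00012). *sox9a* and *sox9c* did not pass the test (adjusted p = 0.068 and 0.10), and hatchery fish 1 was the highest eye for both. *col12a1a*, of a collagen that binds type I fibrils, was lower (log2 fold change -1.74 with SE 0.35, adjusted p = 0.0017), as was *tnfsf11*, the ligand that drives osteoclast formation (log2 fold change -1.76 with SE 0.40, adjusted p = 0.0031). *spp2*, of a phosphoprotein secreted by liver and bone, was at 2.75 to 10.3 in wild eyes and 11.1 to 42.6 in hatchery eyes (log2 fold change -1.91 with SE 0.51, adjusted p = 0.0088), so that its call rests on low counts.

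Of 5 tested genes of mesoderm and muscle, 4 were lower and 0 were higher in wild eyes (median log2 fold change -1.36). *snai2a*, which encodes a zinc finger transcriptional repressor that promotes the epithelial to mesenchymal transition, had 133, 10.8, 127 and 135 normalized counts in wild eyes, against 475, 526, 549.7 and 631 in hatchery eyes (log2 fold change -2.43 with SE 0.52, adjusted p = 0.0026). Wild fish 2 was at the level of the negative controls and the other wild fish were close together, and without wild fish 2 the log2 fold change was -2.05 (adjusted p = 0.00017). *snai2b*, its paralog, had 187, 167, 174 and 179 normalized counts in wild eyes, against 432, 212, 301 and 329 in hatchery eyes (log2 fold change -0.85 with SE 0.22, adjusted p = 0.0067), and wild fish 2 was not set apart there. *snai1* was lower as well (log2 fold change -1.36 with SE 0.30, adjusted p = 0.0026).

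The muscle determination gene *myf5a* had 12.9, 21.5, 24.8 and 8.87 normalized counts in wild eyes, against 13.9, 65.8, 46.6 and 77.1 in hatchery eyes and was called (log2 fold change -1.57 with SE 0.49, adjusted p = 0.017) although hatchery fish 1 lay among the wild fish, and the call was lost without wild fish 1 (adjusted p = 0.053). Its paralog *myf5b* was not (log2 fold change -1.33 with SE 0.54, adjusted p = 0.055). *six4*, of a homeobox factor of muscle precursors, had 18.05, 31.2, 33.9 and 22.7 normalized counts in wild eyes, against 111, 137, 115 and 145 in hatchery eyes (log2 fold change -2.25 with SE 0.25, adjusted p = 7.9e-05). Every hatchery eye was above every wild eye. *gapdh*, which encodes a glycolytic enzyme, had 3045, 2940, 2375 and 3441 normalized counts in wild eyes, against 625, 15687, 31160 and 20667 in hatchery eyes. Hatchery fish 1 was below all wild eyes and the other hatchery fish were far above them (log2 fold change -2.53 with SE 0.77, adjusted p = 0.016), and the *gapdh* call was lost in limma (adjusted p = 0.19), with a replicate block (0.13) and in males alone (0.14). In muscle *gapdh* averaged 180499 ± 91580 normalized counts in wild fish (SD, n = 4) and 930298 ± 421241 in hatchery fish (SD, n = 3), and the wild minus hatchery difference on the log2 scale was -2.41 in muscle, -2.78 in kidney and -1.57 in skin, against -1.61 in the eye.

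The markers of eye and retina, of connective tissue and bone and of skeletal muscle were genes or list members already counted above. Their sums therefore restate those differences and are no separate evidence. Of 10 markers of eye and retina (the *six3*, *six6* and *otx2* paralogs and *rd3l*), 9 were higher and 0 lower, and their summed level was 1413, 1471, 1256 and 1331 normalized counts in wild eyes, against 501.7, 432, 323 and 229 in hatchery eyes. Of the 10, all had a mean at or above the background in wild eyes and 5 did in hatchery eyes. Not all were highest in the eye. *otx2a* averaged 86.8 and *otx2d* 45.8 in wild liver, and *six3c* 134 and *otx2b* 87.4 in hatchery muscle, each above its wild eye mean. Both of these groups held a sample with a factor above 3.0, past which the paper removed samples. That sample was the highest of its group for each gene. *otx2b* ran from 43.1 to 149 in hatchery muscle, against a wild eye mean of 64.5, so that its muscle mean rests in part on that sample. *rd3l* averaged 46.1 in hatchery liver, against 50.3 in wild and 13.6 in hatchery eyes. *six3a*, *six3b*, *six6a*, *six6b* and *otx2c* averaged more in wild eyes than in any other tissue compared. Of 9 markers of connective tissue and bone, 8 were tested, 5 were lower and 0 higher, and their sum was 6273 to 8758 in wild eyes and 23936 to 33000 in hatchery eyes. The 2 *myf5* markers of skeletal muscle summed to 19.3 to 63.3 in wild eyes and 34.6 to 188 in hatchery eyes. The 3 liver markers overlapped between the groups, at 2121 to 2430 in wild eyes and 871 to 3364 in hatchery eyes. The 6 pituitary markers were below the background in both groups, and 1 of 2 immune markers reached it and was not called. Of 4 adipose markers, 1 was tested and it was lower. How far the share of retina, connective tissue and muscle in each dissected eye took part in the gene differences was not tested.

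**Figure D3:**
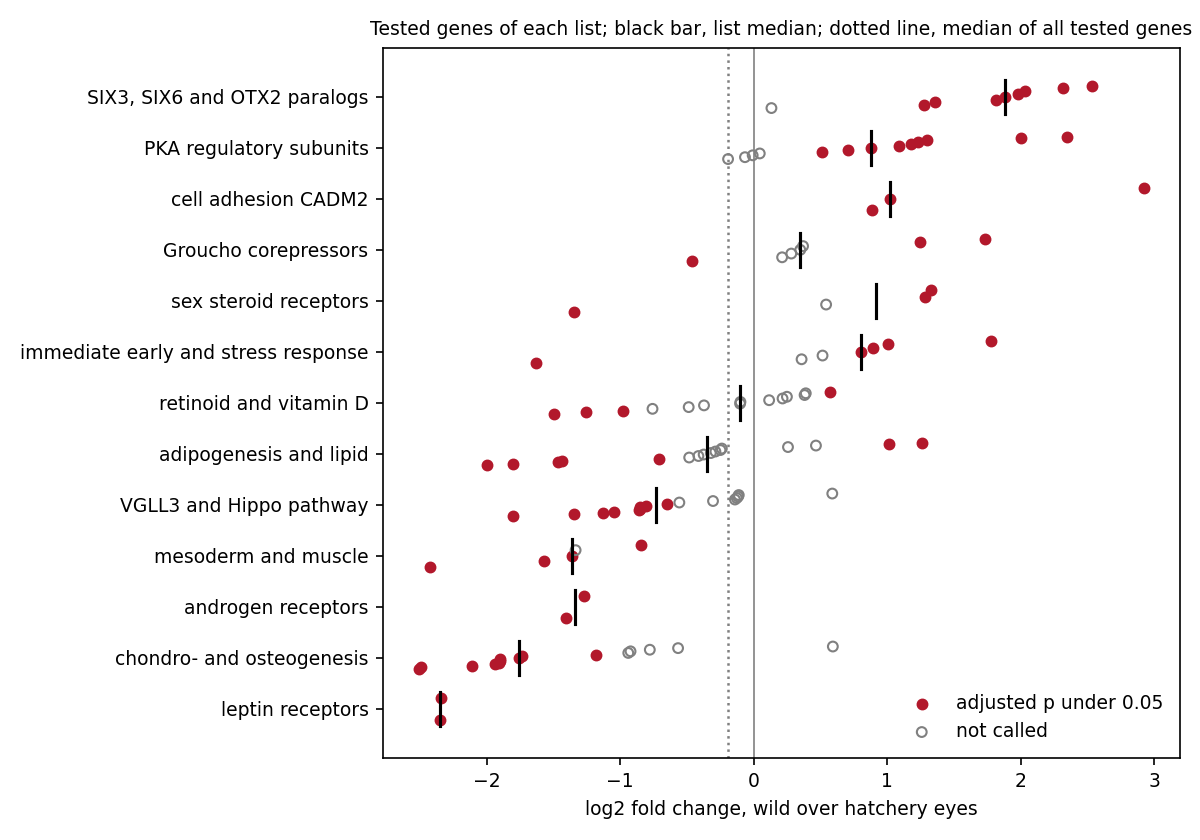
Log2 fold change of wild over hatchery eyes for the tested genes of 13 lists, with filled points for an adjusted p under 0.05, open points for genes not called, black bars for list medians and a dotted line for the median of all 171 genes tested (-0.19). Eye field and protein kinase A genes lay mostly to the right, and matrix, mesoderm, Hippo and leptin receptor genes to the left.

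The Hippo pathway passes on cell contact and tension to the cofactors YAP1 and TAZ (encoded by *wwtr1*), which bind DNA through TEAD factors and compete there with VGLL proteins. Of 16 tested genes, 9 were lower and 0 were higher in wild eyes (median log2 fold change -0.73). The share called was about that of all genes tested (56.7%, with 31.6% lower and 25.1% higher). *tead3a* had 116, 140.1, 153 and 123 normalized counts in wild eyes, against 333, 539, 410.1 and 578 in hatchery eyes (log2 fold change -1.80 with SE 0.21, adjusted p = 7.9e-05), and *tead3b* had 277, 408, 314 and 457 normalized counts in wild eyes, against 881, 789.7, 849 and 1188 in hatchery eyes (log2 fold change -1.35 with SE 0.21, adjusted p = 0.00031). In both TEAD genes the groups did not overlap. The cofactor genes *wwtr1a* (log2 fold change -1.05 with SE 0.17, adjusted p = 0.00044), *wwtr1b* (log2 fold change -0.86 with SE 0.17, adjusted p = 0.0016) and *yap1* (log2 fold change -1.13 with SE 0.24, adjusted p = 0.0022) were lower too, and so was the kinase gene *lats2b* (log2 fold change -0.81 with SE 0.17, adjusted p = 0.0024). *tead1c*, *tead1d*, *lats1a* and *lats2a* were at log2 fold changes of -0.14 to -0.11 and did not pass the test.

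Both leptin receptor genes were lower in wild eyes. *leprb* had 12.9, 20.5, 32.1 and 20.7 normalized counts in wild eyes, against 108, 90.8, 114 and 133 in hatchery eyes (log2 fold change -2.34 with SE 0.28, adjusted p = 7.9e-05). *lepra* had 6.45, 10.8, 9.17 and 5.91 normalized counts in wild eyes, against 13.9, 33.4, 48.2 and 72.03 in hatchery eyes (log2 fold change -2.35 with SE 0.47, adjusted p = 0.0017), so that no wild eye and 3 hatchery eyes were above the background. Among 16 tested genes of adipogenesis and lipid metabolism, 5 were lower and 2 were higher (median log2 fold change -0.35). This was a smaller share than the 56.7% called over all genes tested. The lower genes included *cebpaa* and *cebpab*, which encode CCAAT/enhancer-binding protein alpha, a factor that drives fat cell differentiation. *cebpab* had 315, 246, 230.2 and 279 normalized counts in wild eyes, against 1091, 827, 1155 and 652 in hatchery eyes (log2 fold change -1.80 with SE 0.21, adjusted p = 7.9e-05), and *cebpaa* was lower by a smaller fold (log2 fold change -1.47 with SE 0.24, adjusted p = 0.00053). *ppargc*, of the lipid-sensing receptor PPAR gamma, was at 10.8 to 21.7 in wild eyes and 50.6 to 92.9 in hatchery eyes (log2 fold change -2.001 with SE 0.31, adjusted p = 0.00033), and all wild eyes but fish 4 were below the background. The higher genes were *klf15a* (log2 fold change 1.26 with SE 0.22, adjusted p = 0.00077) and *klf15c* (log2 fold change 1.01 with SE 0.27, adjusted p = 0.0079), of a Krüppel-like factor of metabolism.

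Hormone and nuclear receptors moved in different directions. The androgen receptor genes *arb1* and *arb2* were both lower in wild eyes. *arb2* had 68.3, 49.6, 48.6 and 67.99 normalized counts in wild eyes, against 143, 152, 188 and 136 in hatchery eyes (log2 fold change -1.41 with SE 0.21, adjusted p = 0.00027), and *arb1* had 38.7, 54.9, 52.3 and 39.4 normalized counts in wild eyes, against 119, 104, 98.8 and 128 in hatchery eyes (log2 fold change -1.27 with SE 0.21, adjusted p = 0.00053). The estrogen receptor gene *esr1* was lower (log2 fold change -1.34 with SE 0.32, adjusted p = 0.0050). *esrraa* and *esrrab* are named with the sex steroid receptors but encode estrogen-related receptor alpha, which binds no estrogen and regulates mitochondrial genes. They were higher, *esrrab* at 327, 367, 379 and 349.8 normalized counts in wild eyes, against 136, 157, 150.3 and 123 in hatchery eyes (log2 fold change 1.33 with SE 0.16, adjusted p = 7.9e-05) and *esrraa* at 241 to 306 in wild eyes and 87.2 to 148 in hatchery eyes (log2 fold change 1.28 with SE 0.21, adjusted p = 0.00047). The growth hormone receptor gene *ghr1* was lower, at 144 to 169 in wild eyes and 249 to 373 in hatchery eyes (log2 fold change -1.07 with SE 0.18, adjusted p = 0.00054).

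Of 14 measured genes of the gonadotropin axis only 4 reached the background, and 1 was higher and 2 were lower. *gnrh1* (mean 24.7 in hatchery eyes) and *gnrhr4a* (26.2 in wild eyes) were tested only because the group in which they were higher reached it. Their calls therefore rest on low counts. *lhr*, of the luteinizing hormone receptor, was at 37.4 to 73.3 in wild eyes and 90.99 to 139 in hatchery eyes (log2 fold change -1.09 with SE 0.27, adjusted p = 0.0055), *gnrh1* was near the background in both groups (log2 fold change -1.19 with SE 0.32, adjusted p = 0.0092), and the receptor gene *gnrhr4a* was higher at 16.2 to 38.7 in wild eyes and 5.54 to 12.6 in hatchery eyes (log2 fold change 1.61 with SE 0.36, adjusted p = 0.0031). Of 14 tested retinoid and vitamin D genes, 3 were lower and 1 was higher (median log2 fold change -0.10). This was a smaller share than the 56.7% called over all genes tested. *cyp26b1b*, of an enzyme that degrades retinoic acid, was lower (log2 fold change -1.49 with SE 0.30, adjusted p = 0.0017), while its paralog *cyp26b1a* was not called (log2 fold change 0.11 with SE 0.24, adjusted p = 0.69). The xenobiotic receptor gene *nr1i2* was lower (log2 fold change -0.98 with SE 0.24, adjusted p = 0.0055) and the vitamin D receptor gene *vdrad* was higher (log2 fold change 0.57 with SE 0.14, adjusted p = 0.0054). *pitx1a*, a homeobox gene of the pituitary and hindlimb, was lower, at 276 to 312 in wild eyes and 563 to 891 in hatchery eyes (log2 fold change -1.28 with SE 0.18, adjusted p = 0.00019).

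Among immediate early and stress genes, which respond to a stimulus within minutes to hours, 7 were tested, 4 were higher and 1 was lower in wild eyes (median log2 fold change 0.80). *egr1a*, of a zinc finger factor induced by neuronal activity and handling alike, had 486, 913, 808 and 782 normalized counts in wild eyes, against 222, 212, 240.2 and 196 in hatchery eyes (log2 fold change 1.78 with SE 0.20, adjusted p = 7.9e-05). *egr1b* overlapped between the groups and was called (log2 fold change 0.80 with SE 0.31, adjusted p = 0.048). *egr1d* was the paralog that was lower, at 21.9, 25.9, 21.1 and 22.7 normalized counts in wild eyes, against 54.05, 59.3, 60.4 and 111 in hatchery eyes (log2 fold change -1.63 with SE 0.29, adjusted p = 0.00078). The growth arrest genes *gadd45bb* (log2 fold change 1.004 with SE 0.27, adjusted p = 0.0086) and *gadd45ba* (log2 fold change 0.89 with SE 0.28, adjusted p = 0.018) were higher, *gadd45ba* not without wild fish 3 (adjusted p = 0.051) or wild fish 4 (0.059).

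Genes outside the lists above included *greb1la*, which was among the largest changes. *greb1la* had 47.7, 53.9, 54.1 and 55.2 normalized counts in wild eyes, against 22.2, 8.34, 22.1 and 6.32 in hatchery eyes (log2 fold change 1.83 with SE 0.37, adjusted p = 0.0017). *fhad1* was at 68.3 to 145 in wild eyes and 5.05 to 56.4 in hatchery eyes (log2 fold change 1.73 with SE 0.48, adjusted p = 0.010). Both were higher in every wild eye than in any hatchery eye. Of 4 genes of the histone demethylase KDM5B, 2 were higher, *kdm5bc* (log2 fold change 0.64 with SE 0.19, adjusted p = 0.015) and *kdm5bd* (log2 fold change 0.40 with SE 0.16, adjusted p = 0.049). The *kdm5bd* call was lost without any 1 of 6 of the 8 fish (wild fish 2, 3 or 4 and hatchery fish 2, 3 or 4, adjusted p = 0.078 to 0.11), with a replicate block (0.091) and in males (0.25). *mc4rc*, of a melanocortin receptor, was higher too (log2 fold change 0.97 with SE 0.38, adjusted p = 0.048), but without wild fish 1 its log2 fold change was 0.61 (adjusted p = 0.15), and the call was also lost without wild fish 2 or hatchery fish 1, 3 or 4 (0.055 to 0.11), in males (0.25) and in limma (0.054). Of 2 tested genes of the glycoprotein hormone alpha subunit 1 was higher and 1 lower. *glha1* averaged 20.7 normalized counts in wild and 8.77 in hatchery eyes, and *glha2a* 6.28 and 20.6. Each was tested only because the group in which it was higher reached the background, so that both calls rest on low counts. Of 4 tested genes of DLK1, FSTL3 and FOXO1, 2 were lower, *foxo1a* (log2 fold change -0.77 with SE 0.25, adjusted p = 0.021) and *fstl3b* (log2 fold change -0.93 with SE 0.36, adjusted p = 0.047). The call of *fstl3b* rested on hatchery fish 4, at 557 normalized counts against 150.2 to 225 in the other hatchery eyes. Without that fish the log2 fold change was -0.39 (adjusted p = 0.14) and in males -0.29 (0.32), and the call was also lost without each wild fish (0.066 to 0.12), under TMM scaling (0.094), with 4 reference genes (0.13), with a replicate block (0.057) and in limma (0.088). The call of *foxo1a* was lost with 4 reference genes (0.11) and without wild fish 3 (0.056) or hatchery fish 1 (0.053). The 2 tested immune genes were not called, but *epsti1*, an interferon response gene, was lower without wild fish 4 (log2 fold change -1.16, adjusted p = 0.0064).

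By gene order on chromosome 9 in the RefSeq annotation of Ssal_v3.1, *six6a* lies in a block of panel genes that did not change together. *ppm1a*, the next protein-coding gene on 1 side, was higher in wild eyes (log2 fold change 0.58 with SE 0.14, adjusted p = 0.0054), and so was *dhrs7*, 2 genes away on that side (log2 fold change 0.80 with SE 0.20, adjusted p = 0.0053). *rtn1*, of a reticulon of neurons, lies 5 genes away and was not called (log2 fold change 0.50 with SE 0.21, adjusted p = 0.062) although its values did not overlap, at 2675 to 3156 in wild eyes and 1311 to 2574 in hatchery eyes. It was called under TMM scaling (log2 fold change 0.65, adjusted p = 0.044), with 4 reference genes (0.70, adjusted p = 0.027) and without hatchery fish 3 (0.62, adjusted p = 0.035). *rd3l*, 6 genes away, and *tdrd9*, 7 genes away, were higher (log2 fold change 1.06 with SE 0.35, adjusted p = 0.022 for *tdrd9*), and *kif15*, 8 genes away, was lower (log2 fold change -0.82 with SE 0.27, adjusted p = 0.024). On the other side *six4*, 3 genes away, was lower. *mnat1* (log2 fold change -0.26 with SE 0.17, adjusted p = 0.22) and the amino acid transporter gene *slc38a6* (log2 fold change -0.51 with SE 0.21, adjusted p = 0.061) beyond it were not called, though *slc38a6* was without hatchery fish 3 (log2 fold change -0.63, adjusted p = 0.026).

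The other candidate genes of age at maturity, *vgll3a* and *akap11a*, were not called with the 6 reference genes, nor were their paralogs. *vgll3a* and *vgll3b* averaged less than the background in both groups, *vgll3a* at 7.74, 19.4, 14.7 and 21.7 in wild eyes and at 8.32, 23.2, 22.9 and 24.01 in hatchery eyes, and *vgll3b* at 3.87 to 6.46 in wild eyes and 3.79 to 7.35 in hatchery eyes. *akap11a*, which encodes an anchor of protein kinase A, had 92.8, 82.96, 95.4 and 119 normalized counts in wild eyes, against 83.2, 78.8, 65.3 and 70.8 in hatchery eyes (log2 fold change 0.39 with SE 0.19, adjusted p = 0.11). The *akap11a* result depended on the scaling, since it was called under TMM scaling (log2 fold change 0.56, adjusted p = 0.021) and with 4 reference genes (0.63, adjusted p = 0.025). *akap11b* had 51.6, 95.9, 81.6 and 64.1 normalized counts in wild eyes, against 98.4, 161, 93.1 and 65.7 in hatchery eyes (log2 fold change -0.52 with SE 0.30, adjusted p = 0.16). The log2 ratio of *akap11b* to *akap11a* was -0.43 ± 0.52 in wild eyes and 0.42 ± 0.48 in hatchery eyes (SD, n = 4 each, exact permutation test, two-sided, p = 0.057, adjusted p = 0.17 over 3 pairs).

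The 6 genes by which the samples were scaled were not all level between the groups. *ef1ac* had 50.3, 30.2, 34.8 and 33.5 normalized counts in wild eyes, against 105, 78.8, 49.8 and 56.9 in hatchery eyes (log2 fold change -0.96 with SE 0.29, adjusted p = 0.016), and *prkar1aa* had 673, 805, 874 and 797 normalized counts in wild eyes, against 529, 545, 604 and 536 in hatchery eyes (log2 fold change 0.51 with SE 0.14, adjusted p = 0.010). *rps20* (-0.39), *rxrbaa* (0.25), *vdraa* (0.22) and *vdrab* (0.39), each given as a log2 fold change, did not pass the test, but *rps20* was called without wild fish 1 (-0.57, adjusted p = 0.035) and *vdrab* in males alone (0.72, adjusted p = 0.024). Of 8 tested housekeeping candidates, *ef1ac* and *gapdh* were called, both lower.

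Since all wild fish were males, the comparison was repeated in males alone, 4 wild against 2 hatchery. It called 89 of 170 genes tested (52.4%), from 6 of the same 8 eyes. Among them were 78 of the 97 genes called over all fish, in the same direction. In wild male eyes 36 of the 89 genes were higher and 53 lower. The split depended on the scaling, with 50 higher and 42 lower of 92 genes under TMM scaling and 46 higher and 37 lower of 83 genes with 4 reference genes. *asmt* (3.67, adjusted p = 1.6e-05), *six3c* (2.19, adjusted p = 0.00067), *six6a* (1.19, adjusted p = 0.0064), *prkar2ab* (1.95, adjusted p = 0.00081), *aebp1* (-2.46, adjusted p = 0.00013), *sox9d* (-2.89, adjusted p = 0.00013) and *col1a1b* (-1.92, adjusted p = 0.00031), each given as the log2 fold change in males with the edgeR p, stayed past the threshold. *six6b* (0.91, adjusted p = 0.15), *gapdh* (-1.47, adjusted p = 0.14), *myf5a* (-1.26, adjusted p = 0.084), *cadm2ba* (0.94, adjusted p = 0.081) and *cadm2bb* (0.51, adjusted p = 0.15) did not. Nor did *aesa* (-0.40, adjusted p = 0.072), *gadd45ba* (0.69, adjusted p = 0.067) and *kdm5bc* (0.59, adjusted p = 0.067). Of 96 named genes, 12 lost their call in males. *rtn1* (0.76, adjusted p = 0.032), *slc38a6* (-0.75, adjusted p = 0.016), *akap11b* (-0.83, adjusted p = 0.041) and the reference gene *vdrab* (0.72, adjusted p = 0.024) passed it in males and not over all fish, which does not show that the sexes differ.

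With sex and maturity matched, the 2 wild immature males against the 2 hatchery males, in a fit of 4 kinds of fish that shared 1 estimate of the spread, 74 of 171 genes (43.3%) were called, 28 higher and 46 lower in wild eyes. Under TMM scaling the split was 42 higher and 33 lower, and with 4 reference genes 38 higher and 33 lower. *otx2c* (1.98, adjusted p = 0.0052), *tle1a* (1.94, adjusted p = 0.0045), *sox9d* (-3.18, adjusted p = 0.00057) and *col1a2* (-2.21, adjusted p = 0.0034) were called between the matched males. Without wild fish 1 only 39 genes were called in the matched contrast.

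Between mature and immature wild males 0 genes were called by edgeR, with or without TMM scaling, and 11 had an unadjusted p under 0.05. The gene with the smallest p was *pgra*, a progestin receptor gene, at 46.8 and 32.5 normalized counts in mature males and 10.3 and 18.3 in immature males (log2 difference, mature minus immature, 1.44, edgeR adjusted p = 0.56). Between hatchery females and hatchery males 0 genes were called by edgeR, with or without TMM scaling, and 28 had an unadjusted p under 0.05. The gene with the smallest p was *six6a*, at 19.6 and 15.2 in females and 67.9 and 45.4 in males (log2 difference, female minus male, -1.66, edgeR adjusted p = 0.17). With 2 fish of a kind, these contrasts could pass the threshold only for differences that were large against the spread.

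The same 8 fish also gave gill, heart, kidney, liver, muscle and skin, from 3 or 4 fish of each habitat per tissue, 51 samples together with the eyes. Of the 51, 2 samples, a hatchery muscle and a wild liver, had a factor above 3.0, the limit past which the paper removed samples. For each gene the wild minus hatchery difference in the eye was set against the mean of that difference in the 6 other tissues, on log2(normalized count + 1) with limma and the fish as a random block. The difference in the eye departed from the others for 85 of 171 genes (49.7%), 54 to the higher and 31 to the lower side, or 36 and 52 of 88 genes under TMM scaling and 63 and 22 of 85 genes with 4 reference genes. The *six3*, *six6* and *otx2* paralogs had 8 genes to the higher and 0 to the lower side, the protein kinase A subunits 11 and 0, and the matrix list 0 and 7.

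The 10 genes with the largest departure were *asmt* (3.95, SE 0.45, adjusted p = 3.2e-09), *cadm2a* (3.61, SE 0.60, adjusted p = 5.8e-06), *six3c* (3.35, SE 0.53, adjusted p = 2.4e-06), *prkar2bb* (3.30, SE 0.57, adjusted p = 9.2e-06), *otx2b* (3.15, SE 0.63, adjusted p = 0.00011), *sox9d* (-2.88, SE 0.47, adjusted p = 4.5e-06), *six3a* (2.65, SE 0.61, adjusted p = 0.00052), *otx2c* (2.50, SE 0.65, adjusted p = 0.0016), *cebpdb* (-2.48, SE 0.39, adjusted p = 2.4e-06) and *six3b* (2.46, SE 0.53, adjusted p = 0.00026). Lower wild levels in other tissues added to some of these departures. In muscle *six3c* averaged 32.4 normalized counts in wild and 134 in hatchery fish, *otx2b* 24.6 and 87.4, and *cadm2a* 11.1 and 54.5. These hatchery means included the muscle sample with a factor above 3.0, the highest of its group for each gene. The hatchery muscles ran from 83.7 to 199 for *six3c*, from 43.1 to 149 for *otx2b* and from 32.0 to 74.7 for *cadm2a*. In kidney *prkar2bb* averaged 5.19 and 42.5. In gill *six3a* averaged 3.01 in wild and 40.5 in hatchery fish, and *otx2c* 5.96 and 50.6. The hatchery gills were spread widely, from 6.03 to 116 for *six3a* and from 5.03 to 127 for *otx2c*. Not every tissue went this way, with *cadm2a* at 35.4 in wild and 30.1 in hatchery skin. In *cebpdb*, of a C/EBP delta factor of the acute response, it was mainly the other tissues that differed. Its wild minus hatchery difference was -0.51 in the eye, 1.23 in gill, 2.31 in heart, 1.35 in kidney, 2.81 in liver, 2.97 in muscle and 1.03 in skin. In the eye *cebpdb* had 804, 840.3, 1179 and 1448 normalized counts in wild eyes, against 1599, 1320, 1272 and 1787 in hatchery eyes, and the test in the eye alone was not passed (adjusted p = 0.079). It was passed without wild fish 4 (log2 fold change -0.67, adjusted p = 0.023) and with the immature fish only (-0.86, edgeR adjusted p = 0.016).

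Some eye differences were shared with other tissues. *egr1a* was higher in wild fish in all 7 tissues, by 1.74 in the eye and by 1.43 in skin to 3.89 in heart on the log2 scale, and the departure of the eye was not called (-0.60, SE 0.29, adjusted p = 0.083). *gadd45bb* was higher in all 7 as well, by 1.01 in the eye (-0.89, SE 0.50, adjusted p = 0.13). The leptin receptor gene *leprb* averaged lower in wild fish in all 7 tissues. Its means in wild and hatchery fish ran from 389 and 623 in liver to 29.9 and 309 in muscle. *lepra* did not follow this in liver, at 123 in wild and 57.6 in hatchery fish. The collagen genes were lower in wild fish in both eye and skin. *col1a2*, *col1a1a* and *col1a1b* also averaged lower in wild kidney, with *col1a1b* at 67.3 in wild and 225 in hatchery fish. In heart all of them averaged higher in wild fish, with *col1a1b* at 691 and 304. In muscle *col1a2* and *col1a1a* were lower by less than the spread, and *col1a1b* averaged 986 ± 671 in wild fish (SD, n = 4) and 1636 ± 305 in hatchery fish (SD, n = 3). In gill and liver the collagen genes did not go the same way. In skin *col1a2* averaged 35183 ± 7618 normalized counts in wild fish and 173226 ± 90657 in hatchery fish, and *col1a1b* 3435 ± 1499 in wild fish and 20089 ± 3338 in hatchery fish (SD, n = 3 each). *aebp1* in skin averaged 111 ± 18.1 in wild fish and 429.8 ± 47.2 in hatchery fish (SD, n = 3 each). In heart *aebp1* went the other way, at 143 in wild and 25.4 in hatchery fish. Against the mean of all 6 other tissues the eye departed for *aebp1* (-2.42, SE 0.51, adjusted p = 0.00018) and *col1a2* (-1.67, SE 0.44, adjusted p = 0.0017) and not for *col1a1b* (-1.03, SE 0.46, adjusted p = 0.059). *six4* differed by -2.25 in the eye, -1.36 in muscle, -0.80 in gill, -0.26 in skin, 0.25 in heart, 1.22 in liver and 1.24 in kidney, and the eye departed from their mean (-2.31, SE 0.38, adjusted p = 4.8e-06). The differences above 0 lay near the background. *six4* averaged 10.9 in wild and 8.08 in hatchery heart, 23.4 and 7.74 in liver, and 25.1 and 9.93 in kidney. The wild livers included a sample with a factor above 3.0. *gapdh* was lower in wild fish in several tissues and the eye did not depart (-0.25, SE 1.01, adjusted p = 0.86).

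**Figure D4:**
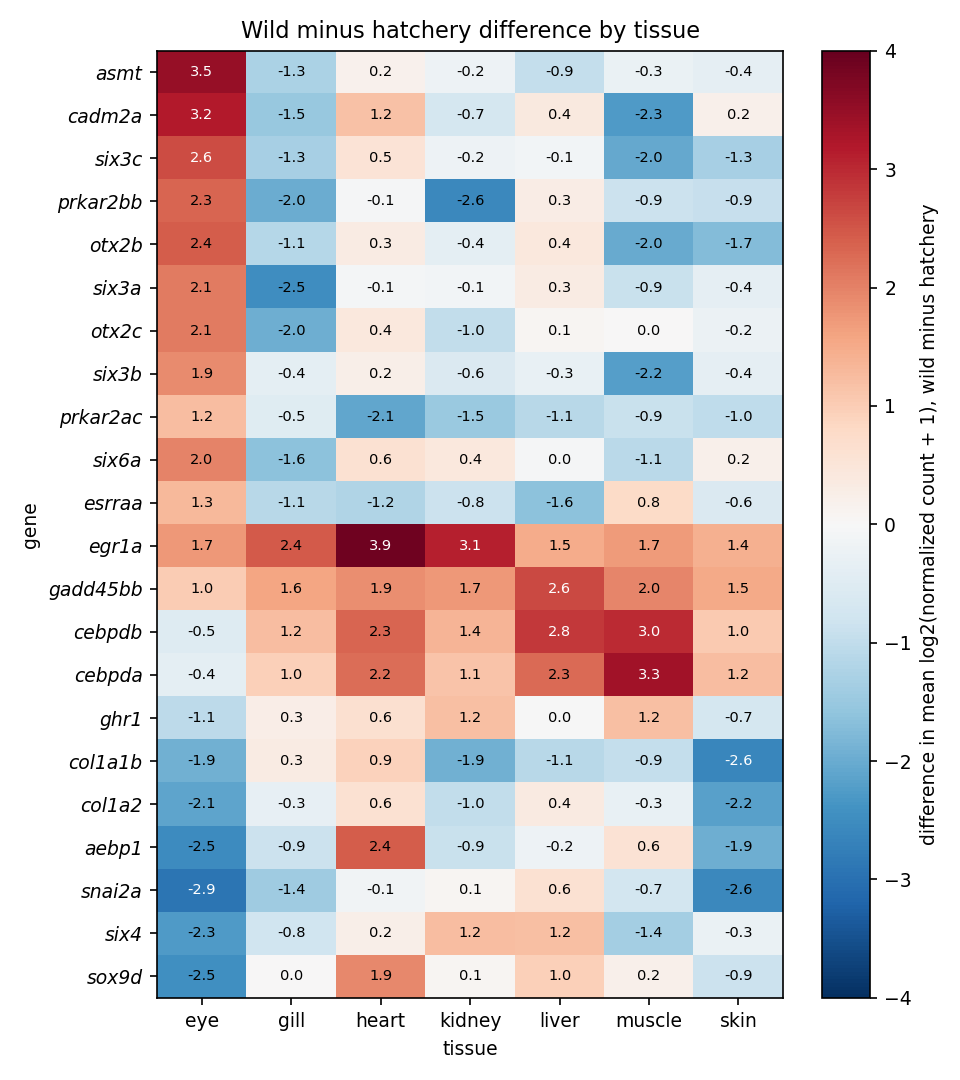
Wild minus hatchery difference in mean log2(normalized count + 1) for 22 genes (rows) in 7 tissues (columns), red for higher and blue for lower in wild fish. *asmt*, *six3c* and *otx2b* differed by 3.47, 2.61 and 2.43 in the eye. In the other tissues they were higher in wild fish by less than 0.6, and in some they were lower. In muscle *six3c* averaged 32.4 normalized counts in wild and 134 in hatchery fish, and *otx2b* 24.6 and 87.4, with a hatchery sample of a factor above 3.0 included. In gill *asmt* averaged 10.2 and 25.6. *egr1a* and *gadd45bb* were higher in every column, and the collagen genes were lower in both eye and skin.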

How the data were processed

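The authors hybridised 100 ng of RNA per sample to nCounter probes for 220 genes, 8 negative and 6 positive controls, and deposited the raw counts of 96 samples. The deposited normalized signal, for 211 genes, was made by the authors in nSolver from the geometric mean of 6 reference genes, without background subtraction. Counts multiplied by a factor from these 6 genes matched the deposited signal to within 0.0094% for counts of at least 100, and this product is the normalized count in the text. All columns were assigned to a sample (0 left over). Some paralogs were too alike for specific probes. Probe sequences and a genome build are not given in the sources used here. RefSeq names were matched by accession for 169 of 220 probes.

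The test on raw counts was glmQLFTest of edgeR after glmQLFit, with the logarithm of the 6-gene factor as offset and Benjamini-Hochberg adjustment over all genes tested, at a threshold of 0.05. Standard errors were derived from the fold change and the F statistic. The comparison with other tissues used limma with a trend and duplicateCorrelation (correlation of tissues within a fish 0.18) on log2(normalized count + 1). Exact permutation tests were two-sided. The edgeR, limma and DESeq2 fits were tested on simulated counts with known fold changes. No pair of eyes of a group was a copy, since their counts differed by 7.47 to 241 times the counting noise per degree of freedom. The labels number the fish within each group and tie the tissues of a fish together, but pair no wild with a hatchery fish.

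Named are the 25 genes called with groups that did not overlap and the largest fold changes, the age-at-maturity and reference genes, the eye field list with *rtn1*, *slc38a6* and *rd3l*, the 10 largest departures from other tissues, and up to 4 genes per list with the smallest p, apart from results that are not reported here. Other genes (among them *myf5b*, *egr1b*, the other protein kinase A subunits, *tead1c*, *tead1d*, *lats1a*, *lats2a*, *wwtr1b*, *yap1*, *lats2b*, *sox9a*, *sox9c*, *col12a1a*, *tnfsf11*, *klf15c*, *cyp26b1a*, *fhad1* and the chromosome 9 neighbours) were named after their values were seen. The members and lists were chosen with earlier results of these data known. The list of *six3*, *six6* and *otx2* paralogs, the androgen receptor list and the other lists for genes that no list held were added after the counts had been seen. Alternatives were TMM scaling, 4 reference genes (*ef1ac*, *rps20*, *rxrbaa* and *vdraa*), DESeq2, limma, other filters, negative controls subtracted, a replicate block, each fish left out, subsets of fish and a stricter threshold. Chosen after seeing the data were the day of the run as a random block, positive control scaling, TMM scaling for the contrasts of sex and maturity, and a pseudocount of 5 and no filter for the tissue comparison. The paper removed 2 samples for a factor above 3.0, whereas samples of such a factor (2 of the 51, a hatchery muscle and a wild liver) were kept here. Means and differences given for the other tissues can therefore include samples that the paper left out. Versions were edgeR 4.0.16, limma 3.58.1 and DESeq2 1.42.0 in R 4.3.3, and scipy 1.17.1 in Python 3.11.15.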

Additional observations from a re-analysis of the deposited data

Results flagged for a closer look

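Of 200 groups of 4 eyes, 100 named genes in 2 groups each, 14 had 1 eye far from the other 3 (Dixon's criterion, which chance meets for about 1 group in 20). In wild eyes, *snai2a* was 10.8 normalized counts in fish 2 against 127 to 135 in the others. *col1a2* was 8818 in fish 1 against 13414 to 13760. *rd3l* was 43.4 in fish 4 against 52.3 to 52.9. *six6b* was 79.9 in fish 1 against 36.5 to 38.5. *rxrbaa* was 119 in fish 2 against 86.7 to 90.8, *aesa* 533 in fish 4 against 461 to 463, *esrraa* 241 in fish 3 against 295 to 306, and *epsti1*, an interferon response gene, 688 in fish 4 against 91.5 to 177. In hatchery eyes, *ppargc* was 92.9 in fish 1 against 50.6 to 56.5, *vgll3a* 8.32 in fish 1 against 22.9 to 24.0, *six6b* 38.8 in fish 1 against 10.1 to 13.9, *egr1d* 111 in fish 4 against 54.0 to 60.4, *kdm5bc* 91.5 in fish 3 against 105 to 107, and *kdm5ba* 176 in fish 1 against 115 to 118.

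*snai2a* was not low in the eye of wild fish 2 alone. In all 7 tissues of that fish it was the lowest of the wild fish, at 6.001 to 36.9 normalized counts (median 16.8), while the fish medians of the other wild parr were 102 to 141. Its paralog *snai2b* was 574 in the skin of that fish, where *snai2a* was 18.2.

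The wild minus hatchery difference in the eye departed from the mean of 6 other tissues by a test of the departure itself for 85 genes. The 10 largest departures on the log2 scale were 3.95 for *asmt*, 3.61 for *cadm2a*, 3.35 for *six3c*, 3.30 for *prkar2bb*, 3.15 for *otx2b*, -2.88 for *sox9d*, 2.65 for *six3a*, 2.50 for *otx2c*, -2.48 for *cebpdb* and 2.46 for *six3b*.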

How the results depend on the processing

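Over 21 alternatives, 67 to 105 genes were called between wild and hatchery eyes, against 97 in the comparison as reported, all within 1.5 times. Leaving out each fish gave 89 to 100 genes. The replicate block by fish number gave 95 genes, 92 of them among the 97. The labels number the fish within each group, and same-numbered wild and hatchery fish share only that number, with correlations of -0.01 to 0.13 over 4 pairs, and 2 of 4 wild fish correlated best with their own number. The median log2 fold change of all genes was -0.19 with 6 reference genes, -0.04 under TMM scaling, 0.06 with 4 reference genes and -0.51 with positive controls, whose scaling called 16 genes higher and 51 lower. The 4 reference genes left out *prkar1aa* and *vdrab*, which both averaged higher in wild eyes. That choice itself raised the scaled wild values, so the shift with 4 reference genes is no independent check of the scaling. With the immature fish only, 19 of 96 named genes lost their call. Among them were *lhr*, *nr1i2*, *vdrad* and *snai2b* (edgeR adjusted p = 0.057 each), *gnrh1* (0.10) and *gadd45bb* (0.13). *kdm5bd* was the named call that changed sign, to -0.003008, with positive control scaling.

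In males alone 71 to 92 genes were called over 14 alternatives, 71 to 87 without each fish and 80 with a replicate block over fish 1 and 2. Between matched males 39 to 77 genes were called, the lowest of them without wild fish 1. Between mature and immature wild males 0 to 1 genes, and between hatchery females and males 0 to 7 genes, were called without each fish, with 1 without wild fish 1, 7 without hatchery fish 2 and 1 without hatchery fish 4. The departures of the eye from other tissues numbered 68 to 90, and 68 to 86 without each fish.

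Depth limits the lowest genes. The hatchery means lay below 20 normalized counts for *cadm2a*, *cadm2ba*, *otx2b*, *otx2d*, *rd3l*, *six3c*, *six6b*, *prkar2bb*, *greb1la* and *gnrhr4a*, among others. The wild means did for *lepra*, *ppargc*, *sox9b*, *spp2*, *myf5a*, *snai1* and *gnrh1*, among others. The fold changes of these genes include background. Genes were filtered on the eyes only, so that means compared in the other tissues can lie below the background too. Negative controls were subtracted before limma. *spp2* (adjusted p = 0.079) and *myf5a* (0.089), which limma called without the subtraction, were not called with it, while *rxrgaa* (0.052), *fstl3b* (0.088), *mc4rc* (0.054) and *gapdh* (0.19) were already lost in limma without it. The cartridge as a random block could not be fitted, since only 1 cartridge held more than 1 eye.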
